A study of Mus musculus with 661 samples.

Results

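Arteriolar endothelial cells (AEC) line the small arteries of the bone marrow cavity and lie mostly along the endosteum, the inner surface of bone. The cells described here were sorted from the endosteum as single endothelial cells and labeled AEC. The study defines AEC as positive for CD31, high in Sca-1, low in CD105 and negative for the blood markers CD45 and Ter119. It describes its endosteal endothelial cells as dominated by AEC, so not every cell need meet this definition. The cells came from wild-type C57BL/6 mice that were young (about 2 months) or old (about 24 months). They were chosen by their sorted population alone, whatever cluster they had been assigned to, and comprised 84 young and 82 old cells, 166 of the 661 cells of the series. The other cells of the series came from 5 further sorted populations of endothelial and mesenchymal stroma and were not used. The comparison asks which genes differ in level between AEC of old and young mice.

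Arteriolar endothelium carries blood under pressure, is covered by smooth muscle and pericytes, and is kept in an arterial state by Notch signaling between neighboring cells. In the marrow it also provides factors that hold hematopoietic stem cells, and it passes into sinusoids, thin-walled venous vessels with scavenging endothelium. Endothelial cells can also present antigen, since inflammatory signals such as interferon gamma induce class II molecules of the major histocompatibility complex (MHC) in them.

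The young cells came from 3 mice and the old cells from 4, but the labels do not name the mouse of a cell. All cells of an age were therefore treated as 1 sample, no test between the ages was possible, and none of the differences has a replicate check. Levels (CPM) are counts per 1e6 summed nuclear gene counts of an age, and a ratio is the log2 of (old CPM + 1)/(young CPM + 1), positive where old AEC were higher. Ranges in brackets are 95% intervals, exact Poisson for a sum of counts and exact binomial (Clopper-Pearson) for a share of cells. They cover counting error only, of reads or of cells, and no spread between mice. The reads carried no molecular identifiers and the cDNA went through 21 PCR cycles. Copies of 1 molecule can therefore be counted repeatedly, and the Poisson intervals are too narrow for counts of molecules. Each ratio was also computed within 3 ranges of the library number in the cell labels. Below 19000 (range 1) there were 20 young and 20 old cells, from 19000 to 26000 (range 2) 40 and 39, and above 26000 (range 3) 24 and 23.

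Depth was similar at both ages with all cells pooled. Total counts per cell ran from 93442 to 761722 in young AEC, with a median of 417873, and from 149544 to 821438 in old AEC, with a median of 424026. Within ranges the ages were less alike. The median was 548922 in young and 424026 in old cells of range 1, and 464825 and 538337 in range 2. In range 3 it was lower at both ages, at 281776 and 264574. The median number of genes with a count was 5631.5 in young and 5412 in old cells, and the median share of mitochondrial counts was 1.85% and 1.83%. A count of a Y-linked gene was present in 74 of 84 young and 75 of 82 old cells.

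The genes of the sorting markers were similar in level at both ages. *Pecam1*, which encodes CD31, was at 2040 CPM in young and 2257 CPM in old AEC, and *Ly6a*, which encodes Sca-1, at 1494 and 1736 CPM. *Eng*, which encodes CD105, a coreceptor of the TGF-beta family, was at 1222 and 1401 CPM. *Ptprc*, which encodes the pan-leukocyte antigen CD45, was close to absent, with 18 counts in all young and 7 in all old cells. None of the 12 pan-endothelial markers differed 2-fold between the ages, and their median ratio was -0.06. *Cdh5*, the vascular endothelial cadherin, was detected in 84 of 84 young and 79 of 82 old cells. Under 5 of the pan-endothelial markers at 10 CPM or more were carried by 2 young and 4 old cells, most of them with many pericyte and smooth muscle markers.

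The sort was not uniform in composition. By the deposited clusters, which were made from the expression of these same cells and are given as a description, 50 of 84 young cells (59.5%, 48.3 to 70.1) and 61 of 82 old cells (74.4%, 63.6 to 83.4) belonged to E3 or E4, which together held most cells of this sort at both ages. Cluster E5 held 19 young and 16 old cells, and E6 and E7 together held 10 young (11.9%) and 2 old cells (2.44%). The share in E3 or E4 was higher in old cells in every range, at 65.0% in young and 90.0% in old cells of range 1, 75% and 82.1% in range 2, and 29.2% and 47.8% in range 3. Its part in the differences between the ages was not tested, but ratios computed in E3 and E4 cells alone are given for several genes and lists.

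Across the genome, 14042 genes were compared, each with a total of 100 counts or more and detected in 5 cells or more. At least 2-fold higher levels in old AEC were found for 1310 genes (9.33%) and at least 2-fold lower levels for 1648 (11.7%), with a median ratio of -0.03. Of these, 560 genes (3.99% of all) were higher and 844 (6.01%) lower with the same direction in all 3 ranges. In clusters E3 and E4 alone such genes numbered 701 higher and 551 lower. Large ratios were concentrated among weakly expressed genes. Of genes with 100 to 1000 counts, 35.2% differed at least 2-fold, against 13.2% of genes with 1000 to 10000 counts and 2.74% of genes with more. Single cells also carried many of them. Among the genes past 2-fold with 100 to 1000 counts, 1785 had more than 25% of their counts in 1 cell of the age where they were higher.

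**Figure D1:**
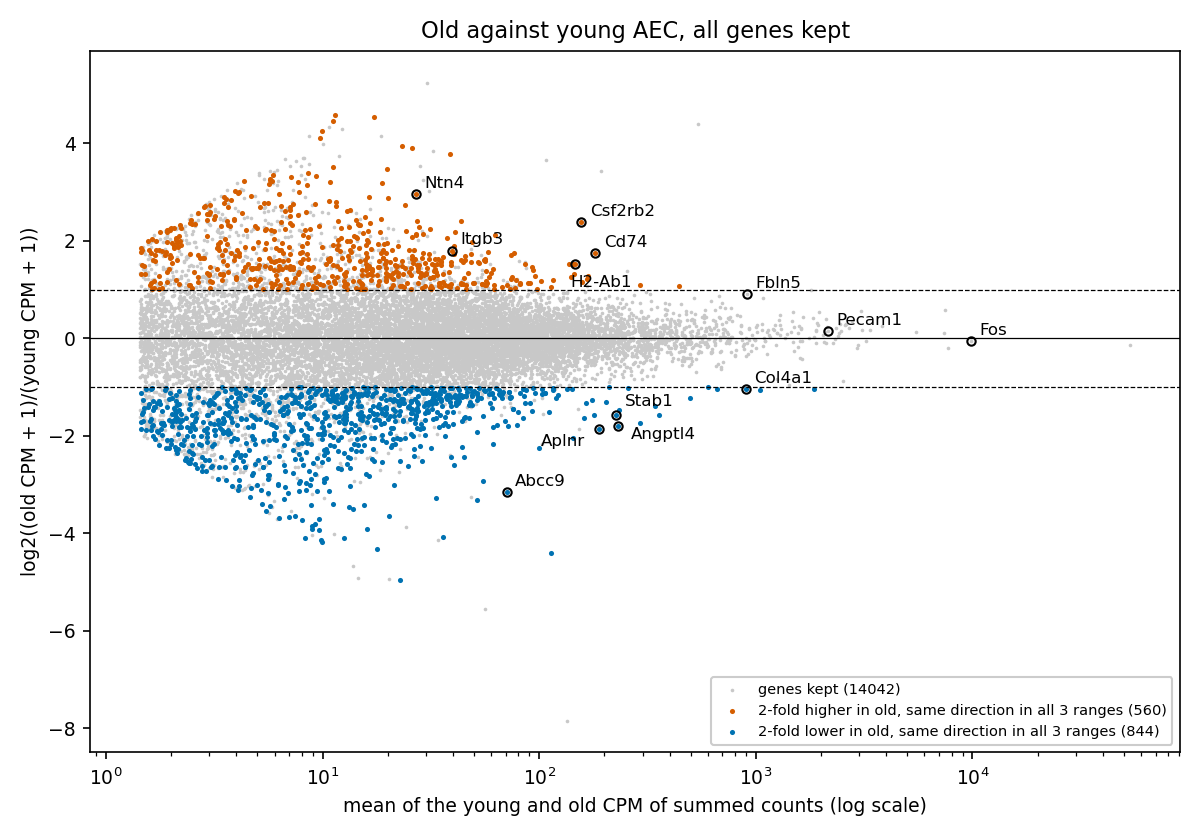
Each point is 1 of 14042 genes, with its mean CPM of young and old AEC on a log axis and its log2 ratio on the other axis, and dashed lines mark 2-fold. Orange and blue points are the 560 and 844 genes past 2-fold with the same direction in all 3 ranges, and the spread of the ratios narrows as the level increases.

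With all cells pooled, MHC class II genes were the gene group with the highest median among all 42 lists examined. This did not hold in every alternative. In clusters E3 and E4 alone the mesenchymal list was higher (1.51 against 1.31), and in range 1 the IL-1 family (1.08 against 1.03). In range 3 alone, with the genes kept there, class II was at 0.64, below several lists. These were the mesenchymal (1.16), complement (0.93), integrin (0.91), NF-kB (0.68) and fibrillar collagen (0.67) lists. In ranges 2 and 3 together the mesenchymal list was again higher (2.76 against 1.90). Class II molecules carry peptides to helper T cells, and the invariant chain, encoded by *Cd74*, escorts them through the cell. Of the 8 listed genes, 6 had enough counts to be compared, 5 of them were at least 2-fold higher and 1 at least 2-fold lower in old AEC, with a median ratio of 1.61 (1.03, 2.54 and 0.64 in ranges 1 to 3). The background over all genes was 9.33% higher and 11.7% lower.

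*Cd74* was at 83 CPM (80 to 86.1) in young and 280 CPM (275 to 286) in old AEC, a ratio of 1.74. The genes for the peptide-binding chains moved with it, *H2-Aa* from 34.1 to 114 CPM (ratio 1.71), *H2-Ab1* from 75 to 217 CPM (1.52) and *H2-Eb1* from 20.3 to 42.5 CPM (1.03). All 4 were higher in old cells in every range, but not always by 2-fold. The ratio of *H2-Aa* was 0.52 in range 3, that of *H2-Ab1* 0.95 and 0.76 in ranges 1 and 3, and that of *H2-Eb1* 0.38 in range 1. With equal weight to clusters E3, E4 and E5, however, the ratio of *H2-Eb1* was -0.10. The H2-DM molecule, which exchanges peptides on class II in endosomes, gave a divided picture. *H2-DMb1* was at 3.39 CPM in young and 25.1 CPM in old AEC (ratio 2.57, but -0.29 in range 3), whereas *H2-DMa* was at 31 and 6.54 CPM (-2.08, but -6.04, -0.96 and -0.74 in ranges 1 to 3, so under 2-fold outside range 1).

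Class II genes differed in how many cells had a count. At both ages the median over cells was 0 for each of these genes. The highest cells reached 3036 CPM of *Cd74* in young and 5355 CPM in old AEC, and 1 young cell held 55.3% of the young counts of *Cd74*. A count of at least 1 of *Cd74*, *H2-Aa*, *H2-Ab1* and *H2-Eb1* was found in 27 of 84 young cells (32.1%, 22.4 to 43.2) and 57 of 82 old cells (69.5%, 58.4 to 79.2). The share was higher in old cells in each range, at 35%, 25.0% and 41.7% of young cells and 70.0%, 74.4% and 60.9% of old cells. With each cell thinned to 100000 counts it was 24.1% and 50%. Counts of all 4 genes were present in 2 young and 13 old cells.

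Cells with class II counts were most frequent in cluster E4, among clusters E3, E4 and E5, at both ages. They made up 13 of 26 young and 24 of 27 old cells of E4, and 3 of 24 young and 21 of 34 old cells of E3. In E3 and E4 alone the share was 32% in young and 73.8% in old AEC. B cells and macrophages of the marrow express class II genes strongly. The sort removed CD45-positive cells, blood cell markers are given beside these values, and their part in the result was not tested. Of the 57 old cells with a class II count, 5 had a count of *Ptprc*, 57 had *Pecam1* and 56 had *Cdh5*. Without all cells with a *Ptprc* count the share was 29.3% in young and 68.4% in old AEC. The 16 hematopoietic markers summed to 107 CPM in young and 57.3 CPM in old AEC, led at both ages by *Lcp1* at 73 and 30.0 CPM, and the T cell marker *Cd3e* was at 0 in both.

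**Figure D2:**
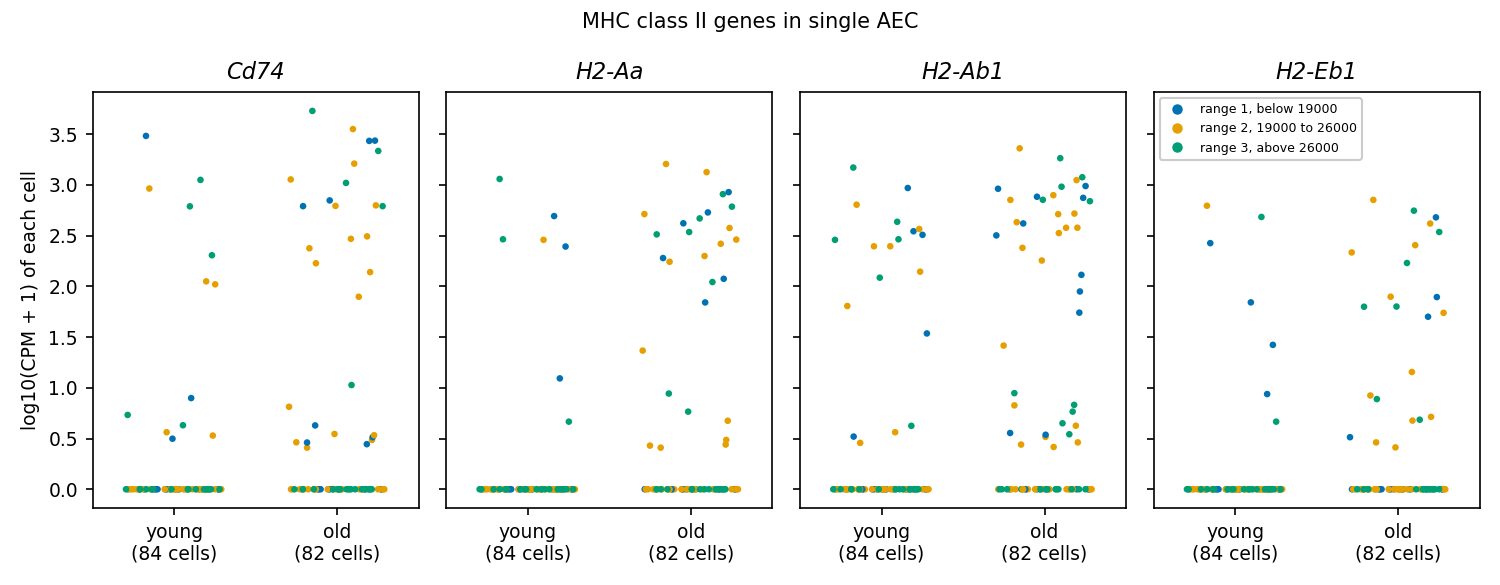
Each point is 1 cell, with its level of a class II gene as log10(CPM + 1) for 84 young and 82 old AEC, colored by library-number range. Cells without a count lie at 0, and more old than young cells lie above it for each gene, as for *Cd74* with 30 of 82 against 13 of 84.

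Class II promoters share short elements close to the start of transcription, among them the Y box, which is bound by the factor NF-Y. The letters CTGATTGG, or CCAATCAG on the other strand, were searched in RefSeq promoter windows of GRCm38.p6, from 250 bases before to 50 after each start, a motif chosen after the expression values had been seen. It was present in 1346 of 32851 windows (4.10%). The promoters of *H2-Aa* (chr17:34287774-34288073, minus strand) and *H2-Eb1* (chr17:34305617-34305916, plus strand) held it, 51 and 62 bases before the start, and are shown since both genes were higher in old AEC, with the Y box in capitals. The windows of *H2-DMa*, *H2-DMb1* and *Ctss* did not hold these letters. There was no window for *H2-Ab1*, and *Cd74* was not searched. A match describes the sequence only.
H2-Aa: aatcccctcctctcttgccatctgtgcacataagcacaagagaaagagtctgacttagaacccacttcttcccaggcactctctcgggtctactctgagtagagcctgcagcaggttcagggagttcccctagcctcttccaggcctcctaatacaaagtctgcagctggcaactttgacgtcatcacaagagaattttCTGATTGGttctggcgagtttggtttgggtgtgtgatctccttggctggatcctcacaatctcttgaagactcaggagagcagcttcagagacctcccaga
H2-Eb1: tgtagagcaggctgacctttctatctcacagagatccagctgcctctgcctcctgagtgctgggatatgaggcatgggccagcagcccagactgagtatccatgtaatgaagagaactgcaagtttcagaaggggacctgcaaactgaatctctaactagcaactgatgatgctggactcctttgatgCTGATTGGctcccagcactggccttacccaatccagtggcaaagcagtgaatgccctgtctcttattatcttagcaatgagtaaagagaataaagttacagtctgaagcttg

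MHC class I genes, which are active in nearly all cells, did not differ as a group. Of 16 genes 2 were at least 2-fold higher and none at least 2-fold lower in old AEC (over all genes 9.33% and 11.7%). Their median ratio was -0.11. The classical chains *H2-K1* (1349 and 1428 CPM) and *H2-D1* (3162 and 3562 CPM) and their partner *B2m* (1146 and 1175 CPM) had ratios of 0.08, 0.17 and 0.04. The higher genes were the nonclassical *H2-Q6*, with a median over cells of 34 CPM in young and 263 CPM in old AEC, and *H2-Q7*, with 3.95 and 48.7 CPM. Their ratios were 1.10 and 1.27, and both were above 0 in every range. The ratio of *H2-Q6* was 2.13, 0.62 and 0.66 in ranges 1 to 3, and that of *H2-Q7* was 0.43 in range 3. These genes have closely similar sequences, so reads may have been divided between them or lost, and their separate levels are uncertain.

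Interferon response genes had no common direction. Of 29 genes compared, 1 was at least 2-fold higher and 1 at least 2-fold lower (over all genes 9.33% and 11.7%). Their median ratio was 0.05 (0.25, 0.011 and -0.58 in ranges 1 to 3). Within range 1, 10 were at least 2-fold higher, where 2505 of all 14042 genes were, and within range 3, 11 were at least 2-fold lower, where 2978 of all genes were. The lower gene over all cells, *Rtp4*, was at 112 CPM in young and 50.6 CPM in old AEC. Its ratio was -1.13, but -0.10 with equal weight to clusters E3, E4 and E5. *Irf7*, a transcription factor of the type I interferon response, was at 123 and 63.7 CPM (ratio -0.94), lower in every range. Targets and inhibitors of NF-kB, a transcription factor of inflammation, had a median of -0.08 over 24 genes, with none higher and 2 lower by 2-fold.

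Within the interleukin-1 family, receptor and adaptor genes differed in opposite directions. *Il1rap*, the shared receptor accessory chain, was at 4.93 CPM in young and 25.7 CPM in old AEC (ratio 2.17), with a count in 10 and 28 cells. *Il1r1*, the signaling receptor, was at 60.6 and 23.7 CPM (-1.32, but -0.53 and -0.54 in ranges 2 and 3). *Pycard*, the inflammasome adaptor, was at 57.1 and 21.2 CPM (-1.39, but -0.43 with equal weight to clusters E3, E4 and E5). All 3 kept their direction in every range. *Casp1*, the protease that processes interleukin-1 beta, had a ratio of 0.91 and *Myd88*, the receptor adaptor, one of 0.60. Only 6 of the 15 listed genes had enough counts, and their median was 0.45 (1.08, -0.08 and 0.57 in ranges 1 to 3).

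Regardless of the lists, genes were ranked by their ratio among those with at least 1000 counts, a count in at least 25% of the cells of an age, no cell with over 25% of the counts of the higher age, and the same direction in every range. Of 1795 such genes, 134 were at least 2-fold higher and 204 at least 2-fold lower in old AEC. The 15 largest ratios in each direction are named here. *Csf2rb2* had the most counts among the higher genes. It encodes a mouse receptor chain of the interleukin-3 family and lies at chr15:78282507-78305721. It was at 49.9 CPM (47.5 to 52.3) in young and 263 CPM (258 to 268) in old AEC, with a count in 33 of 84 and 55 of 82 cells. Its ratio was 2.38 (3.50, 2.70 and 0.80 in ranges 1 to 3). *Csf2rb2* has a closely similar neighbor gene, so the assignment of its reads is uncertain.

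*Ntn4*, which encodes the basement membrane protein netrin-4, had the largest ratio of the ranked genes, 2.95, from 5.36 CPM in young to 48.3 CPM in old AEC (chr10:93640681-93747207). The 4 old cells with few pan-endothelial markers held 49.2% of its old counts, and without such cells of both ages its ratio was 2.57. Lipid enzymes were among the higher genes. *Sc5d*, an enzyme of late cholesterol synthesis, was at 14.2 and 67.8 CPM, and *Scd1*, which introduces a double bond into fatty acids, at 11.2 and 41.9 CPM. *Pex3*, needed to build peroxisomes, had a ratio of 2.40. *Zhx2* (2.36), a transcriptional repressor, and *Pkia* (2.28), an inhibitor of protein kinase A, had nearly equal ratios in the 3 ranges, from 2.03 to 2.48 and from 1.98 to 2.66. With range 2 divided at library number 20000, however, *Pkia* had ratios of 3.11 and 1.40 in its parts. The RNA processing genes *Utp20* (2.41) and *Cpsf1* (2.25) and the centrosomal and tubulin-related genes *Tchp* (2.87, but -0.31 for library numbers from 19000 to 20000) and *Tbcel* (1.83) also ranked here. The remaining higher genes were *Sdcbp2* (2.13), *Fez1* (1.98), *Paqr8* (1.86) and the cochaperone gene *Dnajb5* (1.82). The ratio of *Paqr8* in range 1 was 0.06, and 1 young cell held 75.1% of its young counts.

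Among the lower genes under the ranking rule, *Abcc9* had the largest ratio, -3.15. It encodes SUR2, the regulatory subunit of a potassium channel of pericytes and smooth muscle, and lies at chr6:142587862-142702315. Its level was 128 CPM (124 to 132) in young and 13.5 CPM (12.3 to 14.8) in old AEC, with a count in 38 of 84 and 10 of 82 cells. A single old cell held 78.1% of the old counts. *Kcnj8*, which encodes the pore of the same channel, was at 94.5 and 8.60 CPM (ratio -3.31), with a count in 23 young and 2 old cells. Without the cells that carried at least 5 pericyte and smooth muscle markers, 6 young and 4 old, the ratios of *Abcc9* and *Kcnj8* were -3.28 and -3.34.

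The other lower genes had varied functions. *Piezo2*, a mechanically gated ion channel, was at 45.3 CPM in young and 7.71 CPM in old AEC, and *Lrrc8d*, a subunit of volume-regulated anion channels, at 39.5 and 6.08 CPM. A single old cell held 70.3% of the old counts of *Piezo2*, whose ratio was -3.46 without the top cell of each age. *Rufy3* (ratio -2.52) and *Kif3b* (-1.99), a kinesin motor subunit, were lower in the 3 ranges by similar amounts, from -2.70 to -2.22 and from -2.02 to -1.89, but with range 2 divided at library number 20000 *Kif3b* had ratios of 0.47 and -4.25 in its parts. *Pde1c* (-2.20, but 0.53 in the first part of range 2), a cyclic nucleotide phosphodiesterase, and *Acot7* (-2.05), an acyl-CoA thioesterase, were lower in each range, as were *Zfyve1* (-2.43) and *Rtn2* (-2.04). *Ddx51* (-3.02), an RNA helicase of ribosome assembly, had a ratio of only -0.21 in range 1. The list was completed by *Leo1* (-2.79), a subunit of the PAF1 complex of transcription, and by *Spsb1* (-2.23), *N4bp2* (-2.20), *Ttc23* (-2.0) and *Zbtb39* (-1.98).

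**Figure D3:**
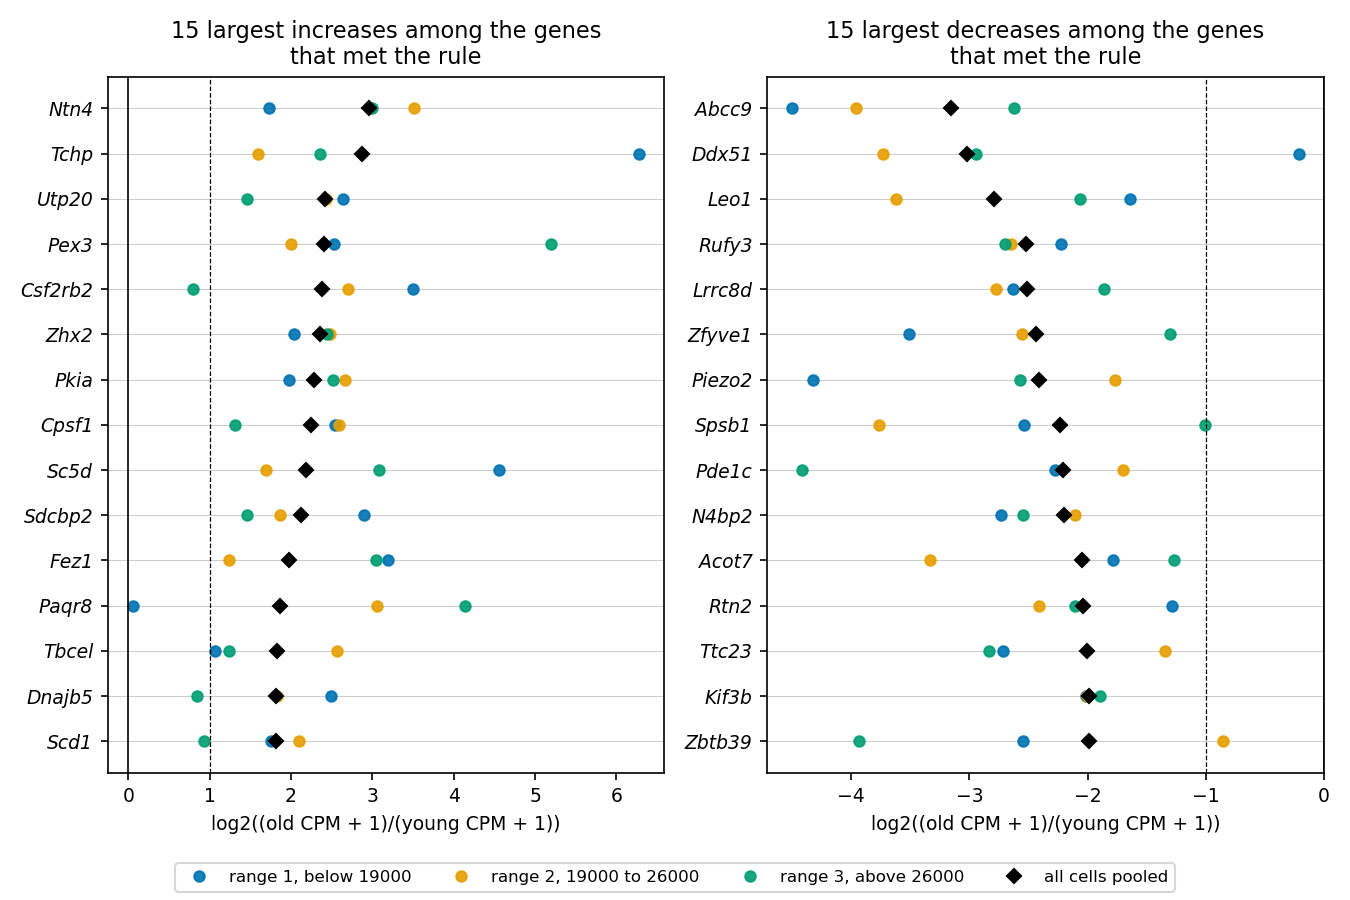
Log2 ratios of old over young AEC for the 15 genes with the largest ratio in each direction under the ranking rule, with all cells pooled (diamonds) and within each library-number range (circles). All circles lie on the side of their diamond, since the rule asked for it, and those of *Tchp* and *Ddx51* in range 1 lie furthest from their pooled value.

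Arterial genes had more ratios above than below 0, all but 1 of them within 2-fold. Of 20 markers 15 had a ratio above 0 (over all genes 6719 of 14042). None was at least 2-fold higher and 1 at least 2-fold lower (over all genes 9.33% and 11.7%). The median was 0.26 (0.46, 0.26 and 0.11 in ranges 1 to 3). Their summed level was 7291 CPM in young and 9275 CPM in old AEC, led at both ages by *Notch1*. *Fbln5*, which encodes an elastic fiber protein of arteries, was at 633 and 1187 CPM (ratio 0.91), and its median over cells was 84.6 and 928 CPM. *Sema3g*, a semaphorin of arterial endothelium, had medians of 80.9 and 640 CPM (ratio 0.62). The Notch ligand *Jag1* had a ratio of 0.73 and the kinase gene *Bmx* one of 0.73, and all 4 genes were higher in every range. *Gja5*, a gap junction protein of arteries, was at 190 and 311 CPM, with a ratio of -0.30 in range 3. Among the 5 markers below 0 was *Cxcr4*, the receptor of CXCL12, at 14.4 and 2.49 CPM (-2.14, but -0.44 in range 1). In E3 and E4 cells alone the median of the list was 0.15.

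Of 20 genes of the Notch pathway, none was at least 2-fold higher and 1 at least 2-fold lower (over all genes 9.33% and 11.7%). Their median was 0.08. The lower gene was *Heyl*, a transcriptional target of Notch that is strong in vascular smooth muscle, at 13.8 CPM in young and 0.17 CPM in old AEC (ratio -3.66). Without cells with pericyte and smooth muscle markers its ratio was -0.86. The arterial ligand *Dll4* had a ratio of 0.33.

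Venous and sinusoidal genes had mostly ratios below 0, and a part of them differed 2-fold. Of 14 markers compared 11 had a ratio below 0 (over all genes 7323 of 14042) and 4 were at least 2-fold lower (over all genes 11.7%), with a median of -0.79 (-1.15, -0.25 and -1.14 in ranges 1 to 3), and none was at least 2-fold higher. The summed level of the 15 listed markers was 5425 CPM in young and 3471 CPM in old AEC, led by *Plvap*, which encodes the diaphragm protein of endothelial pores, at 1879 and 964 CPM (ratio -0.96).

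Scavenger receptors of sinusoids accounted for 3 of the 4 genes. *Stab1* was at 339 CPM in young and 114 CPM in old AEC (ratio -1.56), with cell values from 0 through a median of 62.6 to 3490 CPM in young and from 0 through 27.3 to 1336 CPM in old cells. *Stab2* was at 217 and 9.35 CPM (-4.40, but -0.13 in range 1), and *Mrc1*, the mannose receptor, at 39.3 and 8.75 CPM (-2.05). A single old cell held 81.3% of the old counts of *Stab2*. The remaining gene was *Vcam1*, an adhesion molecule for leukocytes, at 235 and 92.9 CPM (-1.33, but 0.22 with equal weight to clusters E3, E4 and E5). *Nr2f2*, the transcription factor that sets venous identity, was at 50.2 and 26.4 CPM (-0.90), lower in every range. In E3 and E4 cells alone, where no E7 cell enters, *Stab1* had a ratio of -1.32 and the list a median of -1.17. The counts of *Stab2* lay mostly in the cells of E6 and E7, 90.1% of them in young and 81.3% in old AEC, and those of *Mrc1* likewise, at 77% and 66.9%. Over the wider list of 22 scavenger and endocytic genes, 4 were at least 2-fold lower (over all genes 11.7%) and none higher. The median was -0.24.

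Genes of the basement membrane, the protein sheet under the endothelium, were lower in part. Of 20 genes 4 were at least 2-fold lower (over all genes 11.7% were) and none higher. The median was -0.38 (-0.62, -0.04 and -0.16 in ranges 1 to 3). Within ranges 1 to 3, 9, 0 and 6 were at least 2-fold lower, where 3539, 2283 and 2978 of all 14042 genes were. In the same ranges 1, 0 and 1 were at least 2-fold higher. The chains of type IV collagen, *Col4a1* and *Col4a2*, were at 1209 and 1408 CPM in young and 586 and 678 CPM in old AEC. Their ratios were -1.04 and -1.05, but -0.64 and -0.69 in range 2. The median young cell had 779 CPM of *Col4a1* and the median old cell 239 CPM. *Sparc*, a collagen-binding matrix protein, was lower as well, with medians of 2779 and 1073 CPM (ratio -0.87), and these 3 genes were lower in every range. *Lamb1*, a laminin chain, had a ratio of -1.12, of which -4.30 was in range 1 and -0.16 in range 2. The laminin chain *Lama5* was not lower, with a ratio of 0.28 and a positive ratio in every range. *Hspg2* (perlecan) had a ratio of -0.40 (-1.21, 0.23 and -0.81 in ranges 1 to 3).

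Among 12 integrins, which bind cells to such matrix, 1 was at least 2-fold higher and 1 at least 2-fold lower, with a median of -0.20. Over all genes 9.33% were higher and 11.7% lower by 2-fold. *Itgb3*, the beta chain of the vitronectin receptor, was at 17.2 CPM in young and 62.2 CPM in old AEC (ratio 1.80, from 1.24 to 2.51 over ranges). *Itga2*, a chain of a collagen receptor, was at 34.9 and 0.80 CPM (-4.32), with a count in 22 young and 7 old cells. Matrix proteases and their inhibitors had a median of -0.25 over 14 genes, with none higher and 3 lower by 2-fold.

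Transcripts of pericytes and smooth muscle, which surround the vessel wall, were present in the sorted cells. The 12 pericyte and smooth muscle markers summed to 2243 CPM in young and 1865 CPM in old AEC, led at both ages by *Acta2*, with a median ratio of -0.64 (-2.57, -0.14 and 0.28 in ranges 1 to 3). Of them 1 was at least 2-fold higher (over all genes 9.33%) and 3 at least 2-fold lower (over all genes 11.7%), *Abcc9*, *Kcnj8* and *Rgs5*. *Rgs5*, a regulator of G protein signaling in pericytes, was at 537 and 181 CPM (ratio -1.57), and its ratio was -0.84 without the cells with pericyte and smooth muscle markers. Without the cells with few pan-endothelial markers, 2 young and 4 old, the median of the list was -2.83. These old cells held 95.7% of the old counts of *Acta2*. Beyond these values their part in the result was not tested.

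Mesenchymal markers were present at low number, with a median of 2 markers at 10 CPM or more per young cell and 1 per old cell. The 15 markers summed to 683 CPM in young and 788 CPM in old AEC. Of 14 compared 5 were at least 2-fold higher and 4 at least 2-fold lower (over all genes 9.33% and 11.7%). Their median was 0.62 (-2.46, 1.92 and -0.08 in ranges 1 to 3). This median was -0.05 without cells with mesenchymal markers and -0.12 without the top cell of each age. The most abundant was *Lpl* in young and *Postn* in old AEC. *Postn*, a matrix protein of fibroblasts and bone lining, was at 14.9 and 199 CPM, and 1 old cell held 99.9% of the old counts. Its ratio was 3.65 with that cell and -1.84 without the top cell of each age. *Col1a1*, a fibrillar collagen chain, was likewise at 4.73 and 53.4 CPM, with 80.7% of the old counts in 1 cell. At least 7 mesenchymal markers were carried by 2 young and 2 old cells. Of 20 fibrillar collagens and linkers, 3 were at least 2-fold higher and 5 at least 2-fold lower, with a median of 0.21 (-1.68, 0.52 and 0.65 in ranges 1 to 3).

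Bone and blood markers were also uneven. Their counts are read against 9.33% higher and 11.7% lower by 2-fold over all genes. Osteoblastic and chondrogenic markers summed to 613 CPM in young and 798 CPM in old AEC, most of it *Alpl*, which capillary endothelium also expresses. Of 9 compared 2 were at least 2-fold higher and 4 at least 2-fold lower, with a median of -0.83 (-2.0, 0.10 and 0.0054 in ranges 1 to 3). *Ibsp*, bone sialoprotein, was at 111 CPM in young AEC, where 1 cell held 85.5% of the counts, and at 1.38 CPM in old AEC. In range 1 the median young cell carried 3 of these markers at 10 CPM or more and the median old cell 1. Of 5 hematopoietic markers compared 1 was at least 2-fold higher and 1 at least 2-fold lower, with a median of -0.09, and *Cd52* in young AEC, *Cd3e* at both ages and the osteocyte marker *Dmp1* in old AEC had no count. Erythroid and megakaryocytic markers summed to 14.7 and 18.8 CPM, led by *Itga2b*, and of 4 compared 1 was higher and 1 lower by 2-fold, with a median of 0.30. The part of bone and blood cells in the results was not tested.

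Genes of vascular tone and clotting contained several lower members and none at least 2-fold higher. Over all genes 11.7% were lower and 9.33% higher by 2-fold. Of 20 genes of vascular tone 5 were at least 2-fold lower, with a median of -0.28. *Aplnr*, the apelin receptor, was at 297 CPM in young and 81 CPM in old AEC (ratio -1.86), with a count in 42 and 16 cells, but its ratio was -0.64 in E3 and E4 alone. *Ednrb*, an endothelin receptor of endothelium, was at 289 and 117 CPM (-1.30, but -0.99 and -0.69 in ranges 2 and 3), lower in every range. *Nos3*, which produces nitric oxide, had a ratio of 0.43 and was above 0 in every range. Of 19 genes of hemostasis and fibrinolysis 8 were at least 2-fold lower, with a median of -0.29, and 4 of these had the same direction in every range. *Tfpi*, which inhibits the start of clotting, was at 248 and 103 CPM (-1.26, but 0.06 in clusters E3, E4 and E5 alone).

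Genes that hold endothelial cells together or respond to flow are read against the same shares over all genes. Of 18 junction genes 1 was higher and 1 lower by 2-fold, with a median of -0.04. The lower gene was *Jam3*, a junctional adhesion molecule, at 85.5 and 33.3 CPM (ratio -1.34, from -1.43 to -1.18 over ranges). *Cldn5*, the main claudin of tight junctions, was at 2330 and 2500 CPM, but its ratios of 1.34, -0.25 and -0.96 in ranges 1 to 3 had no common direction. None of 12 genes of shear stress and KLF factors differed 2-fold, with a median of 0.14, and the flow-induced factors *Klf2* and *Klf4* had ratios of 0.13 and 0.10. Leukocyte adhesion molecules had a median of -0.24 over 13 genes, with 2 lower by 2-fold, *Vcam1* and *Jam3*. Without the top cell of each age *Vcam1* had a ratio of -0.83 and *Jam3* one of -1.21.

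Lipid genes were examined by branch, and the difference between branches was not tested. Of 20 genes of lipid uptake and handling 3 were at least 2-fold lower (over all genes 11.7% were) and none higher, with a median of -0.22. *Angptl4*, an inhibitor of lipoprotein lipase, was at 361 CPM in young and 103 CPM in old AEC (ratio -1.80), and *Lpl*, the lipase itself, at 268 and 89.6 CPM (-1.57), both lower in every range. The fatty acid carriers *Cd36* (ratio 0.44) and *Fabp4* (0.05) were not lower. Of 14 genes of fatty acid synthesis 3 were at least 2-fold higher (over all genes 9.33% were) and none lower, with a median of 0.16. All 3 were higher in every range. *Fasn*, fatty acid synthase, was at 12.8 and 39.6 CPM (1.55). *Elovl6*, an elongase, had a ratio of 3.15 with a count in 10 cells of each age, and the remaining gene was *Scd1*.

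Cholesterol synthesis showed no common direction, with 5 genes higher and 3 lower by 2-fold among 22 and a median of -0.09. Over all genes 9.33% were higher and 11.7% lower by 2-fold. Of 17 glycolytic genes 2 were at least 2-fold higher, with a median of 0.15. One was *Pfkl*, the liver type of phosphofructokinase, at 97.2 and 219 CPM (ratio 1.17, but 0.56 in range 2), higher in every range. None of 29 genes of oxidative phosphorylation, 30 cytosolic ribosomal proteins, 24 heat shock and protein folding genes or 15 circadian clock genes differed 2-fold, and their medians were -0.09, -0.08, 0.0038 and -0.02.

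Factors that support blood cells were mostly level. Of 17 genes none was at least 2-fold higher and 2 were lower (over all genes 9.33% and 11.7%), with a median of 0.13. *Kitl*, which encodes stem cell factor, was at 501 CPM in young and 493 CPM in old AEC, and the median cell had 357 and 429 CPM. *Cxcl12*, the chemokine that retains stem cells, was at 2343 and 2855 CPM (ratio 0.29), but the ratio was -1.64 in range 1 against 0.96 and 0.89 in ranges 2 and 3. *Il6* (ratios from -1.89 to 3.21 over ranges) and *Csf3* (from -4.26 to 7.90) had no common direction. *Esm1*, endocan, was at 67 and 11.5 CPM (-2.44, but -0.81 in range 2), lower in every range.

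In growth factor pathways some genes differed, against 9.33% higher and 11.7% lower by 2-fold over all genes. Of 19 VEGF pathway genes 1 was higher and 2 lower by 2-fold, with a median of -0.05. Of 9 angiopoietin and Tie genes none was higher and 2 were lower, with a median of -0.10. Of 22 TGF-beta and BMP genes 2 were higher and 1 lower, with a median of 0.23. *Bmp2*, a ligand that endothelium secretes, was at 27.8 and 61.3 CPM (ratio 1.11, from 0.78 to 1.20 over ranges). Its ratio was 0.79 without the cells with few pan-endothelial markers and 0.09 with equal weight to clusters E3, E4 and E5.

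Immediate early genes, which are induced within minutes of stress such as cell isolation, were alike at both ages. Only *Egr2* of 20 differed 2-fold, at 118 and 40.7 CPM (ratio -1.52), and the median was 0.19. *Fos* was at 10066 and 9712 CPM. Cell cycle inhibitors and p53 targets had a median of -0.05 over 18 genes, with 1 higher and 1 lower by 2-fold. These and the other lists here are read against 9.33% higher and 11.7% lower by 2-fold over all genes. *Trp53*, which encodes p53, was at 119 and 51.6 CPM (-1.19), lower in every range, and its target *Cdkn1a* was at 934 and 917 CPM. Of 13 proliferation genes 1 was higher and 4 lower, with a median of 0.04. Of 13 complement genes 1 was lower and none higher, with a median of 0.09. Of 24 antioxidant genes 3 were higher and none lower, with a median of 0.19, among them *Gpx3*, with 78.8% of its old counts in 1 cell. The sex-linked genes, 4 of 5 compared, had no member past 2-fold and a median of 0.06.

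**Figure D4:**
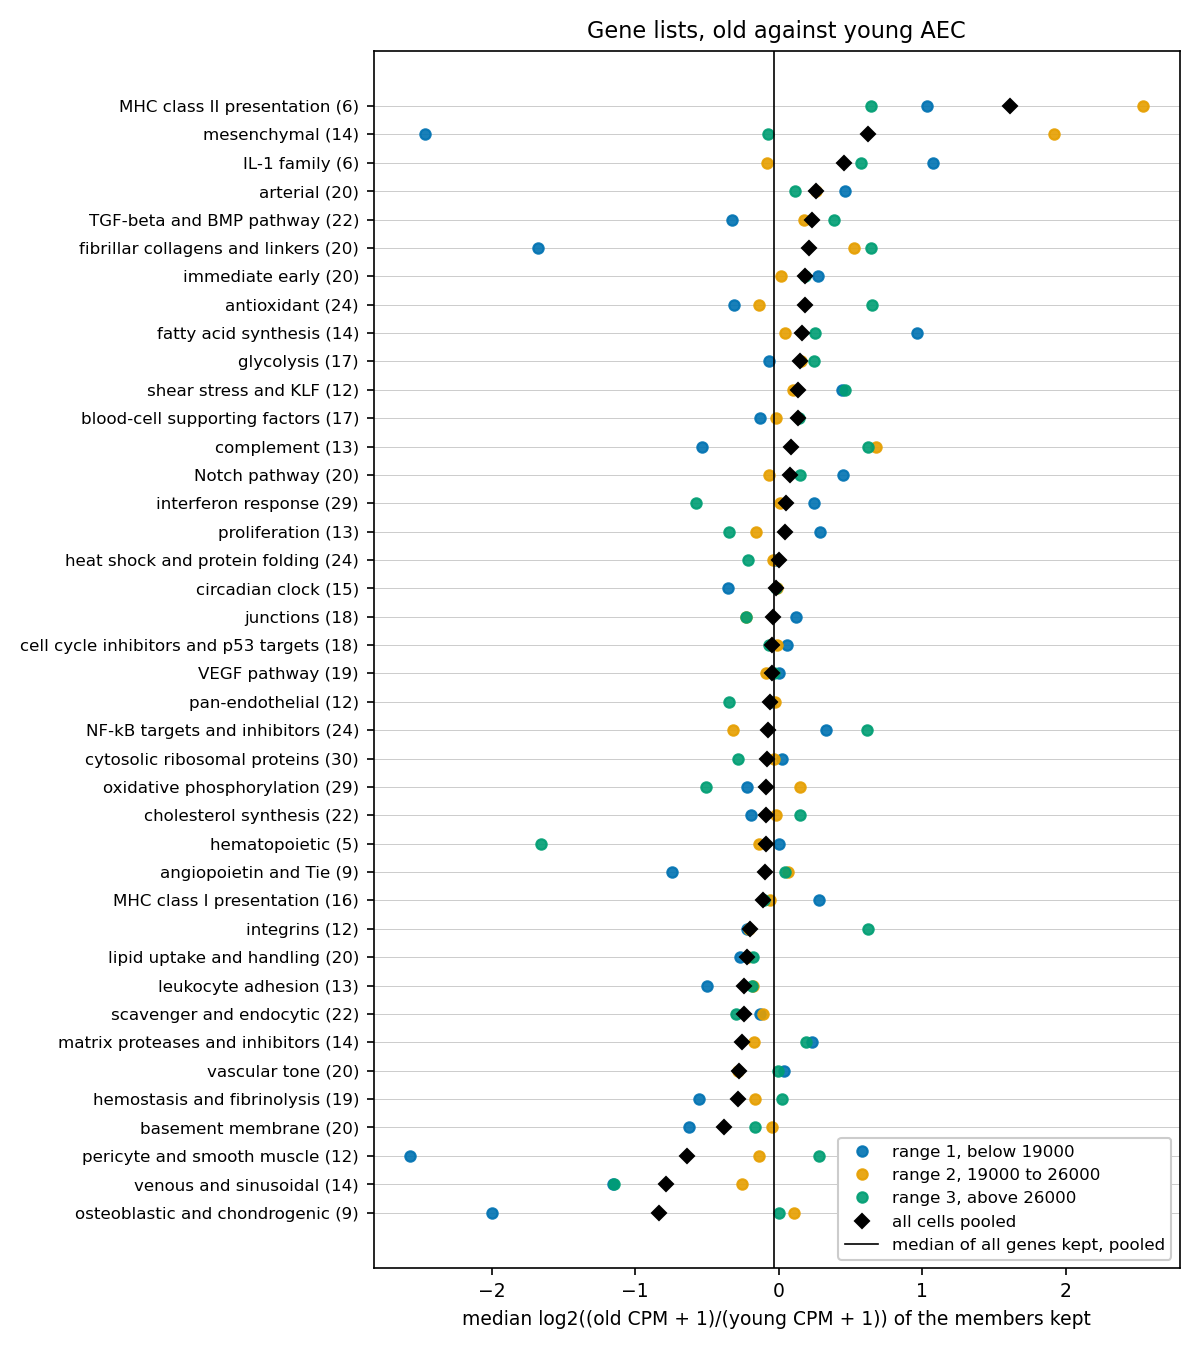
Median log2 ratio of old over young AEC for each gene list with at least 5 genes compared (number in brackets), with all cells pooled (diamonds) and within each library-number range (circles), and the median of all genes as a line. Among the diamonds, MHC class II presentation lies highest, at 1.61. The mesenchymal and the pericyte and smooth muscle lists are the most spread between ranges.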

How the data were processed

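Counts per gene of each cell were used as deposited. The authors made these counts from single-cell libraries with GSNAP (version 2015-09-29) and HTSeq on GRCm38.p4 with Ensembl genes. Strand was disregarded, so reads over overlapping genes could not be told apart by strand. The authors removed cells under 100000 reads. The other 495 of 661 columns were not used. Counts of repeated symbols (270 extra entries) were summed, mitochondrial genes were left out of totals, and 1 young cell had 93442 total counts. Genes were kept when their total was 100 counts or more and 5 cells or more had them, and ratios used a pseudocount of 1 CPM. Named genes are of 3 kinds: the 15 largest ratios in each direction under the ranking rule of the report, members of the gene lists, and the sorting markers. The ranking also left out sex-linked genes and unnamed gene models. Members and lists were chosen with earlier results of these data known. The examples taken from the lists, the promoter motif and the added alternatives were picked after values were seen. Coordinates are those of GENCODE M21. The calculation was tested on simulated counts with known folds. These had no spread between cells beyond depth and counting error, so the test covers the arithmetic only. Values were computed in scipy 1.17.1, pandas 2.3.3 and numpy 2.4.6 under Python 3.11.15, and drawn in matplotlib 3.10.9.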

Additional observations from a re-analysis of the deposited data

How the results depend on the processing

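Ratios of genes were recomputed under 23 alternatives, and counts, shares and list medians under those that apply to them. The erythroid list had no gene left in 3 of them. Of 112 named genes, 73 were past 2-fold, 65 of them had the same direction in every alternative and 32 were past 2-fold in every one. All 30 genes with the largest ratios under the ranking rule kept their direction in every alternative, which the rule fixed for the alternatives by range, and where the 4 ranges count by their mean, and 24 were past 2-fold in every one. Within 1 of the 4 ranges, library numbers 19000 to 20000, 3 of them turned, *Tchp* (-0.31), *Pde1c* (0.53) and *Kif3b* (0.47). Alternatives of scaling and centring shifted the median of all genes by less than 0.1. Genes past 2-fold numbered 794 higher and 1001 lower with cells thinned to 100000 counts, 309 and 385 with a pseudocount of 10 CPM, and 325 and 404 with a stricter filter of 1000 counts and 25% of cells, the last with fewer genes by construction. Those with the same direction in all ranges numbered 193 and 268 with that pseudocount, 188 and 286 with that filter, and 363 and 513 over 4 ranges, which asks for more. In clusters E3 and E4 there were 701 such higher and 551 such lower genes, so more were higher than lower. In all cells, with 560 and 844, it was the other way round. In clusters E3 to E5 they numbered 679 and 678. In ranges 2 and 3, where only 2 ranges have to hold, there were 1037 such higher and 1204 such lower genes. The share of cells in E3 and E4 was 82.1% in young and 93.9% in old AEC when E5 was added, 75% of young cells in range 2, 90.0% of old cells in range 1, and 29.2% and 47.8% in range 3. The share of old cells with a class II count was 50% after thinning. Of the named genes past 2-fold, 8 turned direction in at least 1 alternative, as did 21 of the 39 named genes under 2-fold, and the cause was not tested. *H2-Eb1* was at -0.10 with equal weight to E3, E4 and E5. *H2-DMb1* was at -0.29 in range 3. *Vcam1* was at 0.22 with equal weight to E3, E4 and E5. *Tfpi* was at 0.059 in clusters E3 to E5 and 0.88 with equal weight to E3, E4 and E5. *Postn* was at -1.84 without cells with mesenchymal markers, -0.37 with equal weight to the ranges, -5.20 in range 1, -4.21 in range 3, -0.027 over 4 ranges and -1.84 without the top cell of each age. *Gpx3* was at -0.16 without cells with mesenchymal markers, -2.42 in range 1 and -0.19 without cells with any of the 3 marker sets. *Col1a1* was at -2.03 in range 1 and -0.029 without cells with any of the 3 marker sets. *Ibsp* was at 0.35 in range 3. The medians of 40 of 42 lists moved by more than their spread over the ranges in at least 1 alternative, 101 values in all, and 10 lists kept their sign in every one. Those were the pan-endothelial, arterial, venous, immediate early, MHC class II, leukocyte adhesion, shear stress, basement membrane, lipid uptake and scavenger lists, with MHC class II between 0.64 and 2.54. Within a range alone, lists hold the genes kept in that range. For the values given here the cause was not tested. In range 3 medians were pan-endothelial -0.35, hematopoietic -2.03, osteoblastic -2.11, NF-kB 0.68, interferon response -0.80, hemostasis 0.075, vascular tone 0.016, shear stress 0.40 and junctions -0.30. In range 3, too, medians were matrix proteases 0.10, integrins 0.91, blood-cell factors 0.43, oxidative phosphorylation -0.51, ribosomal proteins -0.25, heat shock -0.21, proliferation -0.33 and complement 0.93. In range 1 medians were arterial 0.46, mesenchymal -2.46, pericyte -2.57, hematopoietic -1.02, osteoblastic -3.20, sex-linked -1.03, MHC class I 0.28, IL-1 family 1.08 and leukocyte adhesion -0.44. In range 1, too, medians were vascular tone 0.21, Notch 0.46, VEGF 0.073, angiopoietin -0.99, TGF-beta -0.32, fibrillar collagens -2.03, matrix proteases 0.47, blood-cell factors -0.13 and lipid uptake -0.27. In range 1, too, medians were cholesterol synthesis -0.28, fatty acid synthesis 0.93, ribosomal proteins 0.10, p53 targets 0.21, proliferation 0.39, complement -2.08 and circadian clock -0.36. In range 2 medians were venous -0.25, erythroid 1.23, immediate early 0.018, basement membrane -0.0016, blood-cell factors -0.020, lipid uptake -0.12 and scavenger -0.11. Without cells with under 5 pan-endothelial markers medians were pericyte -2.83 and lipid uptake -0.27. With cells thinned to 100000 counts medians were hematopoietic -1.39, osteoblastic 0.60, VEGF -0.12, matrix proteases 0.20 and scavenger -0.13. With the stricter filter medians were hematopoietic -1.26, osteoblastic 0.58, VEGF -0.10, matrix proteases 0.31 and scavenger -0.14. In ranges 2 and 3 medians were erythroid 1.04, VEGF -0.14, basement membrane -0.073 and matrix proteases 0.012. In clusters E3 to E5 medians were osteoblastic 0.43, lipid uptake -0.34, heat shock 0.12 and p53 targets 0.10. Without cells with mesenchymal markers medians were osteoblastic -2.25 and lipid uptake -0.31. In clusters E3 and E4 medians were immediate early 0.0099, matrix proteases 0.017, lipid uptake -0.088, cholesterol synthesis -0.45, glycolysis -0.025 and p53 targets -0.13. With equal weight to E3, E4 and E5 medians were immediate early 0.38, hemostasis 0.11, VEGF 0.0067, matrix proteases 0.19 and p53 targets 0.20. Without the top cell of each age medians were hemostasis -0.74 and matrix proteases 0.076. With the mean over cells medians were VEGF -0.14 and matrix proteases 0.030. With equal weight to the ranges medians were VEGF -0.22, matrix proteases 0.10, lipid uptake -0.46 and circadian clock -0.23. Over 4 ranges medians were VEGF -0.13, matrix proteases 0.082, blood-cell factors -0.034, lipid uptake -0.40 and p53 targets 0.083. In cells with a Y-linked count medians were VEGF -0.10 and p53 targets -0.11. Without cells with any of the 3 marker sets medians were VEGF 0.010 and lipid uptake -0.28. With no filter beyond 1 count the median of matrix proteases was 0.072. Without cells with pericyte and smooth muscle markers the median of p53 targets was -0.12. The alternatives of ranges 2 and 3, of all 3 marker sets together, of cells with under 5 pan-endothelial markers and those of the class II shares were chosen after seeing the data. Cells without a Y-linked count were not run alone, since there were 7 in old AEC, under the minimum of 10 per age. No paired analysis was possible because the numbers in the labels count cells within an age and population and pair nothing. Depth limits the shares of cells with a count, which depend on how many reads a cell has.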
